A study of Mus musculus with 4 samples.

Results

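Tnfsf11, Tnfrsf11b, Tnfrsf11a, Tnfsf12 and Traf6 encode the osteoclast signal RANKL, its decoy OPG, its receptor RANK, the related ligand TWEAK and the adaptor TRAF6. They were taken as the entries of the 4 deposited scRNA-Seq matrices with these symbols, which are 5 of 32285 genes, and each symbol matched 1 entry. RANKL, shown on or shed from stromal and bone-forming cells, binds RANK on cells of the monocyte lineage and turns them into bone-resorbing osteoclasts. OPG is a secreted receptor that catches RANKL before it reaches RANK, so the balance of the pair is read as a measure of the pull toward resorption. TRAF6 carries the signal from RANK (and from interleukin-1 and Toll-like receptors) to NF-kB, and TWEAK, made mainly by macrophages, signals through its own receptor Fn14 (Tnfrsf12a). Osteocytes are a known source of RANKL in remodeling bone, and hypertrophic chondrocytes are a known source in cartilage that is being replaced by bone. The 5 genes themselves include none that marks osteocytes.

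On mm10 (GRCm38), in the GENCODE M21 annotation, Tnfsf11 (ENSMUSG00000022015) lies at chr14:78277445-78308043 on the minus strand and Tnfrsf11b (ENSMUSG00000063727) at chr15:54250619-54278484 on the minus strand. Tnfrsf11a (ENSMUSG00000026321) lies at chr1:105780718-105847981 and Traf6 (ENSMUSG00000027164) at chr2:101678429-101701669, both on the plus strand. Tnfsf12 (ENSMUSG00000097328), at chr11:69686250-69695849 on the minus strand, overlaps the readthrough gene Tnfsfm13 on the same strand and Tnfsf13os on the other. How the authors' counting divided reads there is not given in the sources used here, so its counts are less certain than those of the other 4 genes.

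The samples were 1 control and 1 GC library of fracture callus, the cartilage and bone formed around a healing fracture, and 1 of each for trabecular bone. All came from male C57BL/6J mice aged 20 weeks and were taken at week 2. GC mice received prednisolone, a synthetic glucocorticoid, at 6.25 mg/kg/d, and controls received placebo. The labels describe slow-release pellets for all 4 libraries, whereas the methods describe daily injection for the fracture model. Whether a library pooled mice is not given in the sources used here and the labels name collagenase and dispase digestion of the tissue.

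Total depth ran from 41239842 to 95852254 unique molecular identifiers (UMIs, counted molecules) per library, and 3803 to 6890 cells per library were kept. The GC callus matrix listed 7762 barcodes and the other 3 listed 6794880 each, so the GC callus had been filtered before deposit. Pairs of libraries shared 7 to 10 cell barcodes. Median UMIs per cell were 4233 in control and 3299 in GC callus, and within chondrocytes 25719 and 7347. Cells were clustered and named from marker genes, and the names are not the authors'. Callus clusters 4 (led by Lyz2 and Chil3) and 15 (led by Cd74 and H2-Aa) kept their numbers because their leading genes went against the names their markers gave. Callus held 1847 and 2185 chondrocytes, 656 and 668 hypertrophic chondrocytes, 180 and 164 skeletal stem or stromal cells, 83 and 94 osteoblasts or osteocytes, 114 and 119 osteoclasts and 87 and 87 macrophages in control and GC. Trabecular bone gave no osteoblast, osteocyte, osteoclast or chondrocyte class, and only 13 and 36 stromal cells. Levels are in CPM, the usual normalised count: the UMIs of a gene scaled to the summed UMIs of its class and library. The intervals given with levels, shares and ratios are 95% and cover counting error only, and with 1 library per condition no difference between control and GC has a replicate check.

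In the whole callus, OPG was the member with the largest difference between the 2 libraries, and RANKL was nearly level. OPG stood at 140.0 CPM (11321 UMIs) in control and 275.5 CPM (15545 UMIs) in GC callus, a ratio of 1.97 (1.92 to 2.02). RANKL stood at 18.2 CPM (1475 UMIs) and 19.4 CPM (1094 UMIs), a ratio of 1.06 (0.982 to 1.15). The other 3 had ratios between these. RANK was at 4.98 and 6.88 CPM, a ratio of 1.38 (1.20 to 1.59). TWEAK was at 7.59 and 9.20 CPM, a ratio of 1.21 (1.08 to 1.36), and Traf6 at 15.4 and 18.6 CPM, a ratio of 1.21 (1.11 to 1.31). None of the 5 differed by 2-fold, defined throughout as a log2 ratio of at least 1 either way after adding 5 CPM, with at least 50 UMIs over both libraries. Of 15123 genes with that many UMIs, 85 (0.562%) did. The signs for RANKL and Traf6 were not stable. The RANKL log2 ratio of 0.07 became -0.36 when class ratios were weighted by the control library. The Traf6 log2 ratio of 0.21 became -0.18 as the mean over cells and -0.02 with the same weights.

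**Figure D1:**
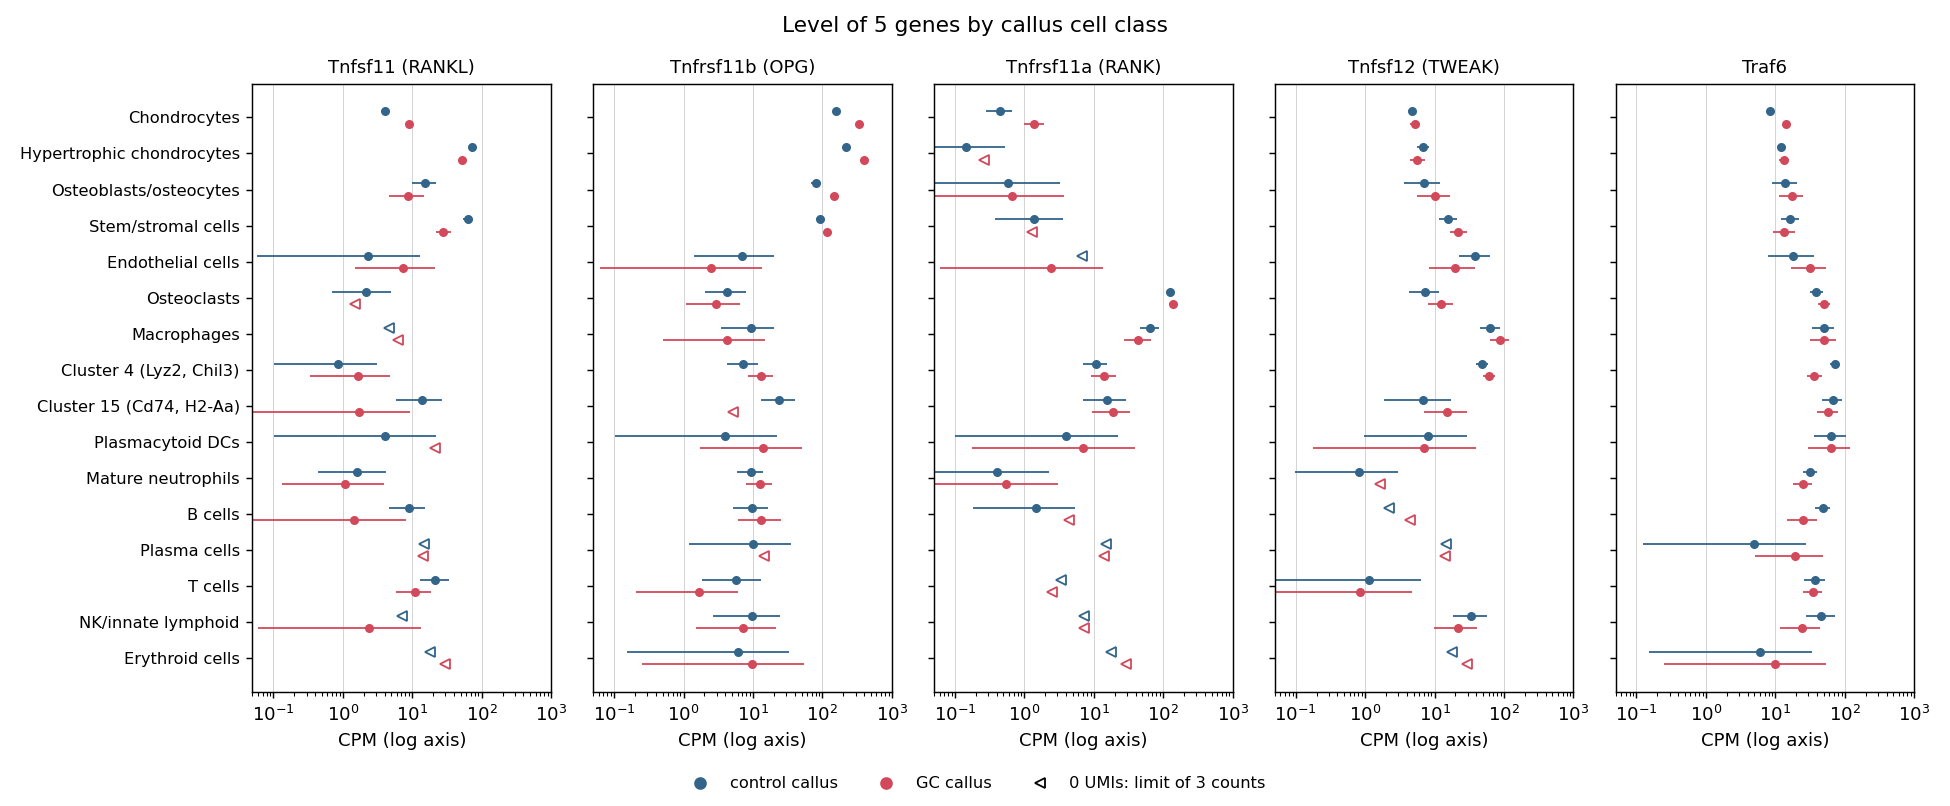
Level of each of the 5 genes (CPM of summed UMIs, log axis) in 16 callus classes or clusters of at least 15 cells per library, control in blue and GC in red, with exact Poisson 95% intervals cut at the left edge; an open triangle marks 0 UMIs and stands at the limit of 3 counts, and unnamed clusters and pericytes are not drawn. RANKL is highest in hypertrophic chondrocytes and stromal cells, OPG in the 4 skeletal classes at the top, RANK in osteoclasts and macrophages, and Traf6 is spread over nearly all classes.

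RANKL transcripts were held mainly by hypertrophic chondrocytes, the enlarged cartilage cells that precede bone. They contributed 991 of the 1475 UMIs in control callus (67.2%, 64.7 to 69.6) and 603 of 1094 in GC callus (55.1%, 52.1 to 58.1). Their level was 72.3 CPM (67.9 to 77.0) in control and 52.6 CPM (48.5 to 57.0) in GC. Skeletal stem or stromal cells came next, at 63.4 CPM (54.5 to 73.3) and 28.2 CPM (21.7 to 35.9), so that the 2 classes overlapped within counting error in control callus and did not in GC callus. T cells followed with 21.5 CPM (12.9 to 33.5) in control and 10.9 CPM (5.81 to 18.6) in GC, and osteoblasts or osteocytes with 15.1 CPM (9.84 to 22.1) and 8.68 CPM (4.62 to 14.9). T cells and osteoblasts did not differ beyond these intervals in either library. The other chondrocytes stood at 4.04 CPM (3.50 to 4.64), below osteoblasts in control, and at 8.998 CPM (7.93 to 10.2) in GC, where the 2 classes overlapped. Pericytes, with 12 and 16 cells, held 7 and 8 RANKL UMIs and were too few to compare.

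Droplets without a cell in the control callus library carried RANKL at 14.8 CPM (8.07 to 24.8), an interval that overlaps those of T cells and of osteoblasts or osteocytes. That value is a share of the droplets' own UMIs, not the level that free RNA adds to a class. Control RANKL was at 2.14 CPM in osteoclasts, 1.63 CPM in mature neutrophils, 8.88 CPM in B cells and 13.7 CPM in cluster 15. The part of free RNA in any class was not tested. Among the classes of at least 15 cells in control callus, only hypertrophic chondrocytes and stromal cells stood above the droplet interval. Stromal cells did so through 5 of 180 cells, without which their level was 20.4 CPM, inside the droplet interval. The remaining classes held few RANKL UMIs. Macrophages held 0 UMIs in both libraries, which allows up to 4.66 CPM in control and 6.24 CPM in GC. Osteoclasts held 5 and 0 UMIs, and mature neutrophils 4 and 2 UMIs among 1704 and 1385 cells. The 12 RANKL UMIs of control B cells lay mostly in cluster 25, a small group led by Ighm, Ly6d and Vpreb3, genes of developing B cells, with 10 UMIs in 47 cells. All 8 RANKL UMIs of cluster 15 in control callus lay in 1.11% of its 90 cells, that is in 1 cell.

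Within hypertrophic chondrocytes, RANKL was lower in the GC library, at 0.727 times control (0.656 to 0.805). The difference was smaller than 2-fold, as it was for the other 3 members with enough UMIs in this class, where 0.614% of 10914 genes passed 2-fold. RANKL UMIs were seen in 178 of 656 control and 127 of 668 GC hypertrophic chondrocytes, which is 27.1% and 19.0%. After thinning every cell to 1000 UMIs (7 and 5 shallower cells left out) the shares were 4.62% (3.14 to 6.53) and 3.77% (2.45 to 5.52), which overlap. Mature neutrophils, thinned the same way (287 and 370 cells left out), gave 0.212% and 0.0985%, with median depths of 1305 and 1177 UMIs against 19248 and 16456 in hypertrophic chondrocytes. The log2 ratio of -0.42 shrank to -0.17 when each cell counted equally and to -0.23 after thinning. Markers of neutrophils moved with it, since S100a8, S100a9, Il1b and Retnlg summed to 94.9 CPM in control and 31.2 CPM in GC hypertrophic chondrocytes, and the part of this in the RANKL difference was not tested.

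RANKL was concentrated in few cells. Among hypertrophic chondrocytes, 22 cells held 50% of the RANKL UMIs in control and 19 did in GC, and the highest single cells held 59 and 34 UMIs. Without the 5 highest cells of each library the levels were 58.5 and 41.4 CPM, so the difference kept its direction. These 5 cells, singled out after their values were seen, carried Mmp13, the collagenase of late hypertrophic cartilage, at 10931 CPM against 4132 CPM in the other control cells, and at 9280 CPM against 1906 CPM in GC. Their Col10a1, the collagen of hypertrophic cartilage, was at 20133 CPM against 34697 CPM in control. In both libraries the RANKL-richest cells thus had more Mmp13 and less Col10a1 than the remaining cells of the class.

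**Figure D2:**
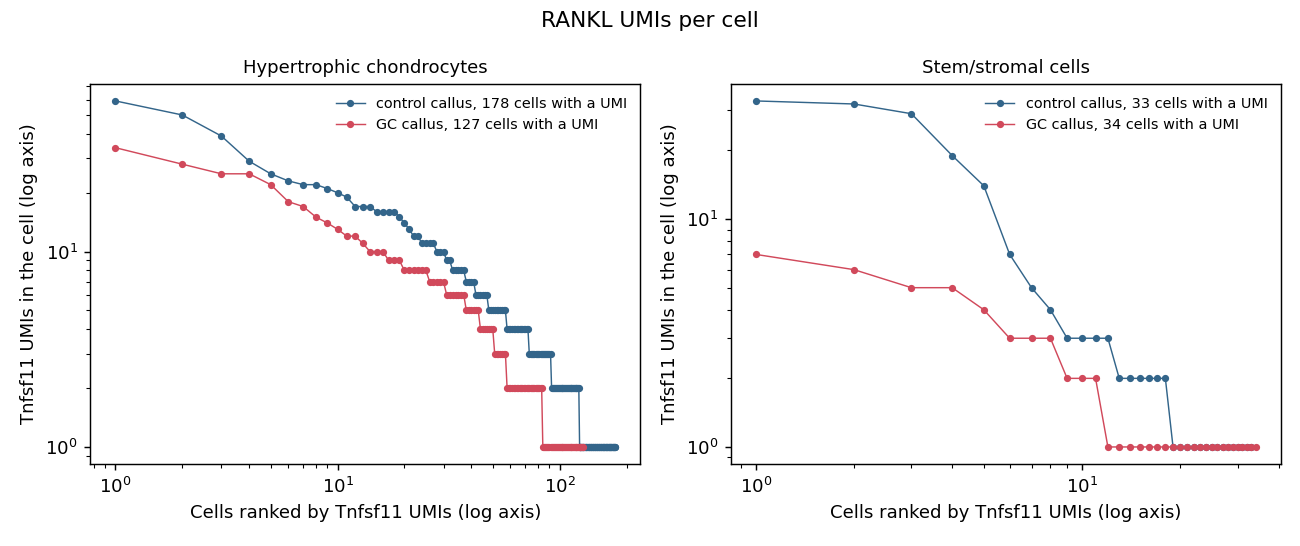
RANKL (Tnfsf11) UMIs per cell against the rank of the cell, both on log axes, for cells with at least 1 UMI; control in blue, GC in red, hypertrophic chondrocytes on the left and skeletal stem or stromal cells on the right. In stromal cells the first 5 control cells stand far above the rest (up to 33 UMIs, against 7 in GC), while the number of cells with a UMI is nearly equal, at 33 and 34.

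Among classes with at least 50 RANKL UMIs, the largest difference toward lower RANKL was in skeletal stem or stromal cells, at 0.444 times control (0.329 to 0.593, log2 ratio -1.04), and it rested on 5 cells. Of the 182 control UMIs, 127 lay in 5 of 180 cells, and of the 65 GC UMIs, 27 lay in 5 of 164. Without those 5 cells of each library, RANKL stood at 20.4 CPM in control and 17.2 CPM in GC. The share of cells with a RANKL UMI was 18.3% in control and 20.7% in GC, and 5.06% (2.34 to 9.38) and 3.05% (0.997 to 6.97) after thinning, with 2 and 0 cells left out. As a mean over cells the log2 ratio was -0.25. RANKL was the 1 member of 4 past 2-fold in this class, where 1.97% of 8007 genes were. The 5 control cells also held Mmp13 at 3905 CPM against 797 CPM in the rest of the class, while the 5 GC cells held 341 CPM against 679 CPM. Markers of osteoblasts summed to 28283 CPM in control and 44114 CPM in GC stromal cells over the 9 genes of that list (1 of them at 0 in both), and their part in the result was not tested.

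Chondrocytes outside the hypertrophic cluster showed the opposite direction for RANKL, 2.23 times control (1.84 to 2.69, log2 ratio 0.63), and this rested on cluster 2. Cluster 2 held 52 control and 1104 GC cells, was led by Ibsp, Col1a2 and Fn1, and had RANKL at 19.7 CPM (10 UMIs) and 28.1 CPM (148 UMIs), well above the other large chondrocyte clusters. Within clusters 3, 7 and 8 the ratios were 0.984 (0.691 to 1.39), 1.22 (0.734 to 2.00) and 0.705 (0.323 to 1.38), all with intervals that include 1. In cluster 20, with 89 and 37 cells, 2 and 13 UMIs gave a ratio of 29.7 (6.71 to 271). Osteoblasts or osteocytes, with 26 and 13 RANKL UMIs, gave 0.577 (0.272 to 1.16), and T cells, with 19 and 13, gave 0.508 (0.231 to 1.08). Neither class could be told from no difference at this depth.

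Unnamed callus clusters held a further part of both RANKL and OPG. Cluster 19, with 4 control and 146 GC cells and led by Ibsp, Col1a1 and Fn1, held 105 RANKL UMIs (68.8 CPM) and 697 OPG UMIs (457 CPM) in GC. It carried markers of more than 1 class and, like cluster 2, came almost wholly from the GC library. Cluster 16, led by Ttn, Ibsp and Gpx3, held 5 and 9 RANKL UMIs and OPG at 369 and 399 CPM. Leaving out clusters of which over 90% came from 1 library turned the whole-callus log2 ratio of RANKL from 0.07 to -0.09 and lowered that of OPG from 0.95 to 0.73.

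OPG UMIs lay mainly in the chondrocyte classes, and the OPG level was higher in GC callus in each of the 4 skeletal classes. Chondrocytes held 7784 of 11321 OPG UMIs in control (68.8%) and 9557 of 15545 in GC (61.5%), and hypertrophic chondrocytes held 26.1% and 29.0%. In control callus the order was hypertrophic chondrocytes at 215.7 CPM (208 to 224), chondrocytes at 156.5 CPM (153 to 160), stromal cells at 92.6 CPM (81.8 to 104) and osteoblasts or osteocytes at 81.7 CPM (68.8 to 96.3). In GC callus it was 393 CPM (382 to 405), 333 CPM (327 to 340), 118 CPM (104 to 133) and 149 CPM (130 to 170). Stromal cells and osteoblasts overlapped within counting error in control and only just in GC, and the 2 chondrocyte classes were apart from each other and from both in each library. Droplets without a cell in control callus held OPG at 94.9 CPM (76.3 to 116.6). That interval overlaps those of control stromal cells and of control osteoblasts or osteocytes, and the 2 chondrocyte classes stood above it. The GC callus has no such droplets, so the part of free RNA in the OPG of stromal cells and osteoblasts was not tested.

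Chondrocytes had the largest OPG ratio, 2.13 (2.07 to 2.19, log2 ratio 1.07), and this was the 1 of 5 members past 2-fold in the class, where 0.801% of 13230 genes were. The call lay close to the limit, since the log2 ratio was 0.97 with median-of-ratios scaling and 0.82 without the clusters found almost wholly in 1 library. The direction held in the larger clusters taken one by one. OPG stood at 309 and 581 CPM in cluster 2, 145 and 237 CPM in cluster 3, 230 and 410 CPM in cluster 7 and 101 and 143 CPM in cluster 8. These are ratios of 1.88 (1.60 to 2.22), 1.64 (1.55 to 1.74), 1.78 (1.70 to 1.87) and 1.42 (1.28 to 1.57). In cluster 20, the smallest, OPG stood at 95.8 and 88.1 CPM, a ratio of 0.920 (0.667 to 1.247).

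**Figure D3:**
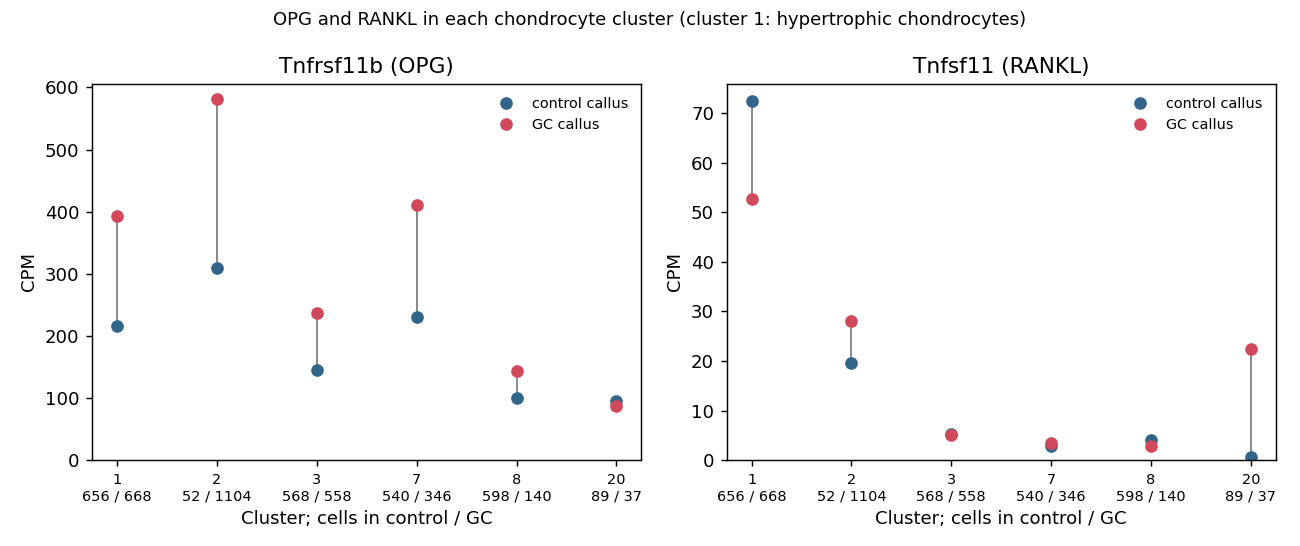
OPG (left) and RANKL (right) in CPM in each callus cluster of the chondrocyte and hypertrophic chondrocyte classes, control in blue and GC in red, with the numbers of control and GC cells under each cluster. OPG is higher in GC in clusters 1, 2, 3, 7 and 8. RANKL is lower in GC in the hypertrophic cluster 1 and higher in cluster 20, on 2 and 13 UMIs. Intervals are not drawn, and those of the RANKL ratio include 1 in clusters 2, 3, 7 and 8.

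Over the whole chondrocyte class the OPG difference was spread over many cells and was also seen at equal depth per cell. The 5 highest chondrocytes held 2.70% and 3.34% of the OPG UMIs, and 230 cells in each library held 50% of them. With every cell thinned to 1000 UMIs (20 and 127 cells left out), OPG was seen in 14.1% (12.504 to 15.7) of control and 31.2% (29.2 to 33.3) of GC chondrocytes. Unthinned shares were 68.4% and 73.1%, with control chondrocytes 25719 and GC chondrocytes 7347 UMIs deep. Thinning equalizes depth but not the make-up of the class by cluster. Cluster 2, with a median of 2782.5 UMIs, held 52 control and 1104 GC chondrocytes. It had the highest OPG of the chondrocyte clusters in both libraries, at 309 and 581 CPM, and its part in the thinned shares was not tested. In mature neutrophils, which held 23 and 23 OPG UMIs, the thinned shares were 0.706% and 1.18%, at median depths of 1305 and 1177 UMIs. The part of free RNA in them was not tested. The OPG level there was 9.35 and 12.47 CPM, and droplets without a cell held 94.9 CPM in control callus. The GC callus matrix holds no such droplets.

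Hypertrophic chondrocytes had OPG at 1.82 times control (1.74 to 1.91), with thinned shares of 16.3% (13.6 to 19.4) and 26.7% (23.4 to 30.2). Stromal cells had a smaller ratio of 1.27 (1.07 to 1.51). Osteoblasts or osteocytes had 1.82 (1.47 to 2.27), but 5 cells held 53.9% of the UMIs in control and 56.5% in GC, and the log2 ratio of 0.83 became -0.16 when cells needed 500 genes. Neither hypertrophic chondrocytes, stromal cells nor osteoblasts passed 2-fold for OPG, and in osteoblasts or osteocytes 0 of 2 members did, where 1.48% of 5891 genes did.

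RANKL and OPG were counted in the same cells, so the total depth of a library cancels in the number of RANKL UMIs per OPG UMI. This ratio of summed UMIs still gives deeper cells more weight. Its log2 change from control to GC over all callus cells was -0.89, and -1.34 with every cell thinned to 1000 UMIs. With 3′ counting a UMI is 1 molecule whatever the transcript's length, although capture can differ between the 2 genes. In the whole callus this ratio was 0.130 (0.123 to 0.138) in control and 0.0704 (0.0661 to 0.0748) in GC, 0.540 times control (0.497 to 0.587). OPG was thus the more abundant transcript in both libraries, at 7.68 and 14.2 UMIs per RANKL UMI. Among the 4 skeletal classes the ratio was highest in stromal cells, at 0.684 in control and 0.239 in GC, a change to 0.350 times control (0.247 to 0.491). It was 0.335 and 0.134 in hypertrophic chondrocytes, 0.399 times control (0.356 to 0.446). In osteoblasts or osteocytes it was 0.184 and 0.0583, 0.317 times control (0.145 to 0.664). All 3 of these classes had a lower ratio in GC, with both genes differing in hypertrophic chondrocytes and RANKL resting on the 5 cells described above in stromal cells. In osteoblasts or osteocytes the ratio rested on 26 and 13 RANKL UMIs, 19 of the 26 in 5 cells. There 5 cells also held 53.9% and 56.5% of the OPG UMIs. Control OPG of stromal cells and osteoblasts also overlapped the level in droplets without a cell. That level is a share of droplet UMIs, not the amount free RNA adds to a class.

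**Figure D4:**
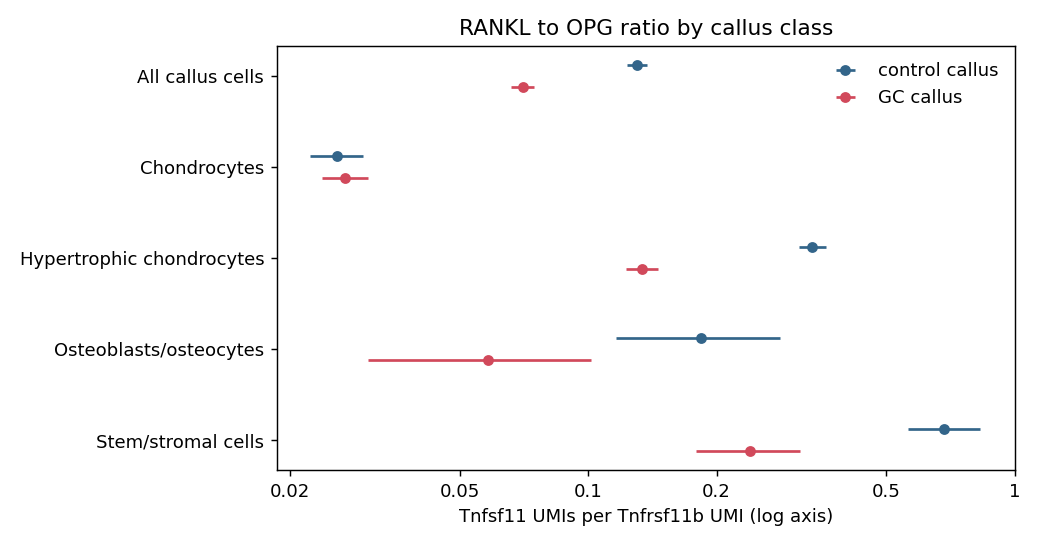
RANKL (Tnfsf11) UMIs per OPG (Tnfrsf11b) UMI on a log axis in all callus cells and in 4 skeletal classes, control in blue and GC in red, with exact conditional 95% intervals. The ratio is lower in GC in all callus cells, hypertrophic chondrocytes, osteoblasts or osteocytes and stromal cells, and equal within counting error in chondrocytes.

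Chondrocytes did not share this change. Their ratio was 0.0258 (0.0223 to 0.0297) in control and 0.0270 (0.0238 to 0.0306) in GC, a change of 1.05 times (0.864 to 1.27), as both genes were higher in GC. Most chondrocyte RANKL in GC came from cluster 2. Of hypertrophic chondrocytes with a RANKL UMI, 62.9% in control and 77.2% in GC also had an OPG UMI, against 61.3% and 67.7% of those without one. Cells with RANKL were deeper, at medians of 22211 and 18708 UMIs against 18289 and 15954. In stromal cells the shares were 39.4% and 44.1% with RANKL and 40.8% and 43.8% without, so cells with and without RANKL had an OPG UMI at similar shares.

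RANK marked osteoclasts, which held 292 of 403 UMIs in control callus (72.5%) and 276 of 388 in GC (71.1%). Its level in osteoclasts was 125.1 CPM (111 to 140) and 136.8 CPM (121 to 154), a ratio of 1.09 (0.924 to 1.29), and 91 of 114 and 87 of 119 osteoclasts had a UMI. Macrophages were next, at 63.7 CPM (45.7 to 86.4) and 43.7 CPM (27.1 to 66.8), a ratio of 0.686 (0.385 to 1.19). Cluster 15 had 15.4 and 18.6 CPM and cluster 4 had 10.7 and 14.2 CPM, and these 2 did not differ beyond their intervals. No class of the monocyte lineage showed a RANK difference beyond counting error. None of 2 members with enough UMIs passed 2-fold in osteoclasts (2.57% of 7083 genes), of 3 in macrophages (4.55% of 3360) or of 3 in cluster 4 (4.61% of 6027). The same held for 1 member in cluster 15, where 5.80% of 3067 genes did.

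Other cells had little RANK. Chondrocytes had 22 and 40 UMIs, 0.442 and 1.40 CPM, and 30 of the 40 in GC lay in cluster 2. Hypertrophic chondrocytes held 2 and 0 UMIs, and T cells, NK cells and plasma cells held 0 in both libraries. The whole-callus log2 ratio of 0.25 became 0.07 when class ratios were weighted by the control library. Osteoclasts numbered 1.70% and 1.73% of callus cells. Marker genes of osteoclasts (8, none at 0) summed to 12711 and 15682 CPM in that class, while markers of hypertrophic chondrocytes summed to 2489 and 344 CPM there, and the part of the latter was not tested.

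Downstream of RANK, Traf6 UMIs were counted in each callus class, though erythroid cells had 1 and 1 and plasma cells 1 and 4. In control callus an unnamed cluster, 14, with 108 cells and led by Cd36 and Lyz2, had 101.2 CPM on 30 UMIs. Among the other classes and clusters it was highest in cluster 4 at 72.2 CPM (61.7 to 84.0), cluster 15 at 66.9 CPM (47.5 to 91.4) and plasmacytoid dendritic cells at 64.1 CPM (36.6 to 104), which overlapped, and then in macrophages, B cells, NK cells, osteoclasts and T cells at 37.3 to 49.7 CPM, which also overlapped. Mature neutrophils had 31.7 CPM, and the skeletal classes had less, from 8.43 CPM in chondrocytes to 16.4 CPM in stromal cells. Droplets without a cell in control callus held Traf6 at 9.49 CPM (4.34 to 18.0), and the control levels of the skeletal classes lay within that interval. In GC callus the highest were plasmacytoid dendritic cells at 63.7 CPM, cluster 15 at 57.6 CPM, cluster 14 at 56.6 CPM (16 UMIs), osteoclasts at 50.1 CPM (40.8 to 60.8) and macrophages at 49.9 CPM (32.0 to 74.3), and cluster 4 lay lower.

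Traf6 was lower in GC in cluster 4 and B cells and higher in chondrocytes. In cluster 4 it stood at 72.2 CPM (169 UMIs) and 36.5 CPM (67 UMIs), 0.505 times control (0.375 to 0.674), the clearest Traf6 difference of the callus though short of 2-fold on the scale used (log2 ratio -0.90). In B cells it stood at 48.8 and 25.03 CPM, 0.513 times control (0.282 to 0.884), and 0 of 1 member passed 2-fold there (6.56% of 5058 genes). In chondrocytes it stood at 8.43 and 14.4 CPM, 1.71 times control (1.48 to 1.958), with ratios of 2.66 (1.11 to 8.33) in cluster 2, 1.55 (1.21 to 1.99) in cluster 3, 1.52 (1.12 to 2.05) in cluster 7, 1.16 (0.808 to 1.63) in cluster 8 and 1.955 (0.788 to 4.45) in cluster 20. The control chondrocyte level lay within the interval of droplets without a cell, which the GC callus lacks, and the part of free RNA was not tested. The neutrophil genes S100a8, S100a9, Il1b and Retnlg summed to 83.3 CPM in control and 130 CPM in GC chondrocytes. Their part in the Traf6 difference was not tested. Osteoclasts gave 1.28 (0.957 to 1.72), neutrophils 0.787 (0.534 to 1.15) and T cells 0.945 (0.585 to 1.54), and 0 of 1 member passed 2-fold in neutrophils (6.58% of 5335 genes) and in T cells (3.02% of 4864). Of the callus neutrophils, 878 of 1704 control cells were in cluster 6 and 1182 of 1385 GC cells in cluster 0.

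Of osteoclasts with a RANK UMI, 54.9% in control and 47.1% in GC also had a Traf6 UMI, against 21.7% and 37.5% of the 23 and 32 without one. The former were deeper, at medians of 23023 and 18784 UMIs against 10661 and 11210.

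TWEAK was highest in callus macrophages at 63.7 CPM (45.7 to 86.4) in control and 87.4 CPM (63.0 to 118) in GC, and in cluster 4 at 48.3 CPM (39.8 to 58.1) and 61.0 CPM (50.2 to 73.4). These 2 did not differ beyond their intervals. Endothelial cells with 38.9 CPM (17 UMIs) and 19.6 CPM (8 UMIs) and NK cells with 33.8 CPM (14 UMIs) and 21.7 CPM (9 UMIs) followed, and stromal cells had 15.7 and 22.1 CPM. Neutrophils (2 and 0 UMIs), B cells (0 and 0) and T cells (1 and 1) had almost none. The ratio of GC to control was 1.37 (0.870 to 2.16) in macrophages, 1.26 (0.964 to 1.66) in cluster 4 and 1.41 (0.925 to 2.15) in stromal cells, and each interval includes 1. Its receptor Tnfrsf12a was found mainly in skeletal cells, at 153 and 108 CPM in chondrocytes and 133 and 97.9 CPM in stromal cells.

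**Figure D5:**
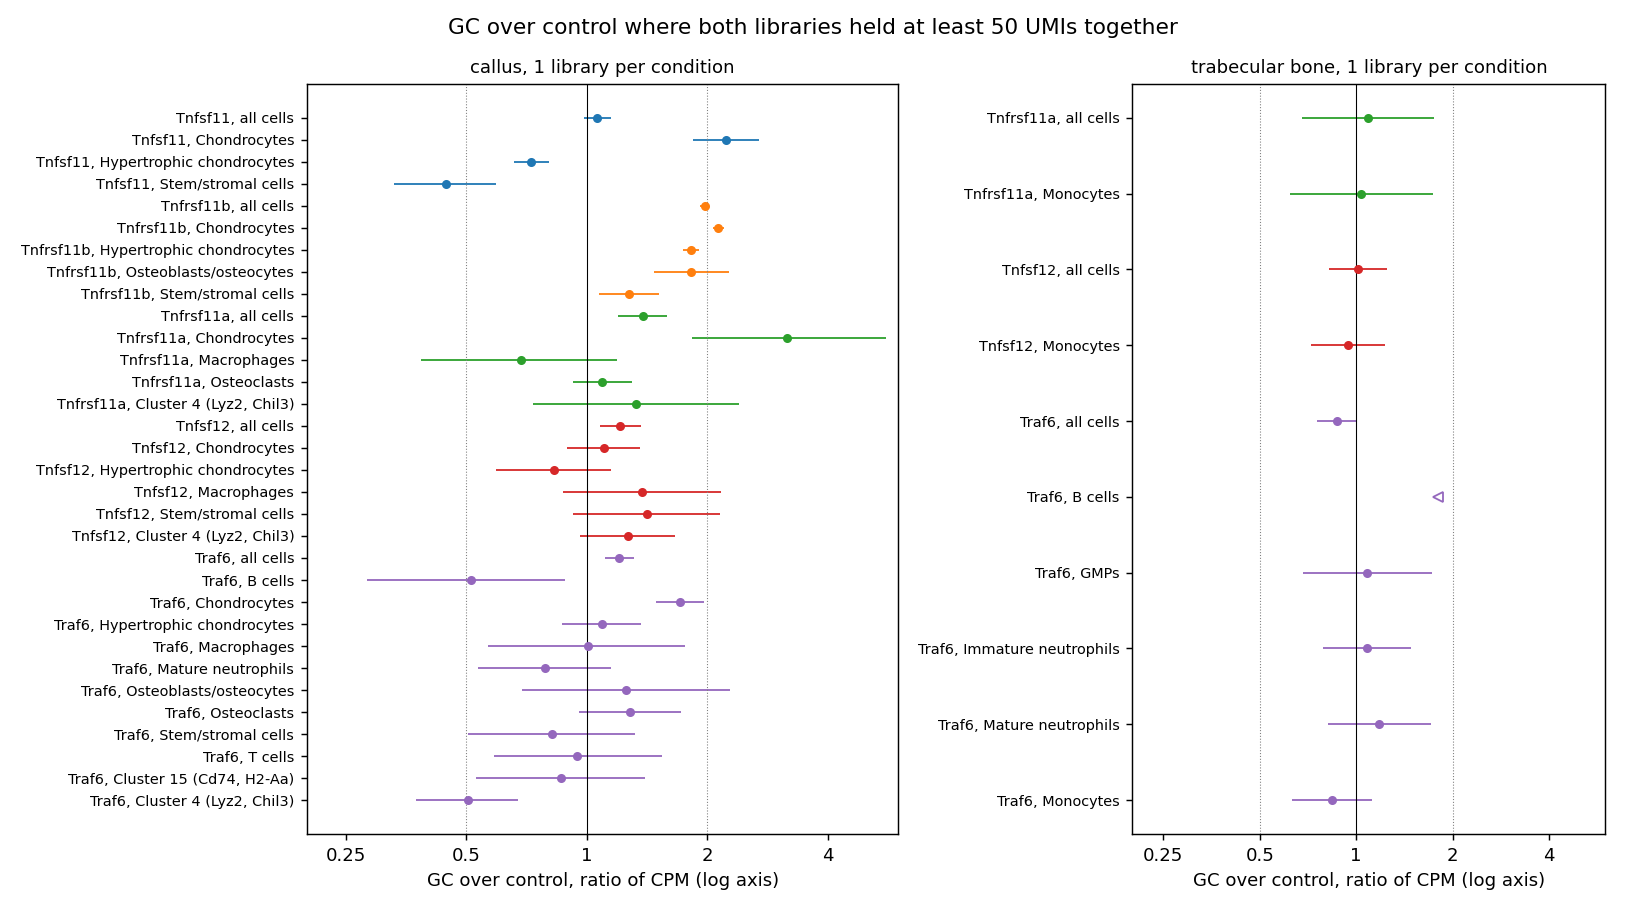
Ratio of GC to control CPM (log axis) for each member and class with at least 50 UMIs over both libraries, callus on the left and trabecular bone on the right, with exact conditional 95% intervals and dotted lines at ratios of 0.5 and 2; the open triangle is the upper bound for Traf6 in trabecular B cells, which had 0 UMIs in GC. OPG lies to the right of 1 in each callus class drawn, and RANKL lies to the left in hypertrophic chondrocytes and stromal cells and to the right in chondrocytes.

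Trabecular bone held very little RANKL, OPG or RANK. Its cells were mostly neutrophils and other blood cells, and the part of this in the low levels was not tested. RANKL had 9 UMIs in each library (0.262 and 0.238 CPM) and OPG had 5 and 15. All 5 OPG UMIs in control and 11 of 15 in GC lay in the stromal cells, at 42.0 CPM (13.6 to 98.0) and 43.6 CPM (21.7 to 78.0). The RANKL UMIs lay in B cells (4 and 0), stromal cells (3 and 0), T cells (2 and 5), hematopoietic stem or progenitor cells (0 and 3) and plasmacytoid dendritic cells (0 and 1). The RANKL to OPG ratio was 1.80 (0.542 to 6.84) in control and 0.60 (0.232 to 1.46) in GC, 0.344 times control with an interval from 0.0667 to 1.58, so no change was detectable with so few UMIs.

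RANK in trabecular bone lay in monocytes, the pool from which osteoclast precursors come, with 32 of 35 UMIs in control and 34 of 42 in GC. Monocytes had it at 6.48 and 6.71 CPM, a ratio of 1.03 (0.619 to 1.73). TWEAK too was a monocyte transcript by count (119 of 176 and 115 of 197 UMIs), at 24.1 and 22.7 CPM, a ratio of 0.941 (0.722 to 1.23). Its level was higher in the few stromal cells, at 126 CPM (70.5 to 208) and 127 CPM (86.7 to 179), and in mast cells or basophils, at 57.8 and 39.8 CPM on 14 and 15 UMIs. Traf6 in monocytes stood at 21.9 and 18.3 CPM, a ratio of 0.838 (0.628 to 1.12). None of the 3 members with enough UMIs in monocytes passed 2-fold, where 0.630% of 8732 genes did.

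Over all trabecular cells Traf6 had 401 and 385 UMIs, a ratio of 0.870 (0.754 to 1.003), RANK gave 1.09 (0.677 to 1.75) and TWEAK 1.01 (0.823 to 1.2496). None of these 3 passed 2-fold (1.0% of 12164 genes). The sole call was Traf6 in B cells, with 81 UMIs in 314 control cells and 0 in 16 GC cells. The interval of its ratio runs from 0 to 1.80, the GC cells were all in cluster 20 while 179 and 79 control cells were in clusters 15 and 19, and 43.2% of 4968 genes passed 2-fold in this comparison, so the call says little about Traf6. In granulocyte-monocyte progenitors Traf6 gave 1.08 (0.683 to 1.72), in immature neutrophils 1.08 (0.785 to 1.48) and in mature neutrophils 1.18 (0.819 to 1.71), and 0 of 1 member passed 2-fold in each, against 0.440% of 7952, 0.589% of 7973 and 3.61% of 7222 genes. In T cells, 11 and 17 Traf6 UMIs gave 0.405 (0.179 to 0.958), and the 4 neutrophil genes summed to 37417 CPM in control and 4352 CPM in GC T cells, whose part was not tested.

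Across 55 class and library points of both tissues, the genes with the profile most like RANKL on log2(CPM + 5) were Podnl1 (Pearson r 0.856), Itga7 (0.841) and Spaca1 (0.831), out of 13290 genes. For OPG they were Snhg18, Mir100hg and Fgf2 (0.942 to 0.946), and RANKL and OPG had r of 0.715 with each other. For RANK they were Shtn1 (0.899), Arfgef3 (0.852) and Bdh2 (0.830), for TWEAK Capn2, Stx3 and Tmbim1 (0.726 to 0.765), and for Traf6 Med15, Reps1 and Ppp2ca (0.842 to 0.861). RANK and Traf6 had r of 0.544. The points share libraries and differ in depth, so these values are descriptions.

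Among 76 other genes of the pathway, the clearest difference in callus was in cytokines that induce RANKL or act beside it. Of 15 inducers and their receptors with enough UMIs over all callus cells, 2 passed 2-fold and both were lower in GC, where 0.562% of 15123 genes passed it in either direction. Il1b, which promotes osteoclast activity, was at 210 CPM in control and 50.6 CPM in GC, a ratio of 0.241 (0.231 to 0.2505). Osm, the gp130 cytokine oncostatin M, was at 51.4 and 12.97 CPM, a ratio of 0.252 (0.233 to 0.273). Mature neutrophils held 12313 of 16990 Il1b UMIs in control and 1489 of 2854 in GC. For Osm they held 2195 of 4159 and 326 of 732, and cluster 4 held 1206 and 214. In mature neutrophils Il1b stood at 5003 and 807 CPM and Osm at 892 and 177 CPM, while Tnf went the other way there, from 61.0 to 307 CPM. Fos (0.210) and Ptgs2 (0.338) were also lower in mature neutrophils. In that class 6.58% of 5335 genes passed 2-fold. Its cluster 6 held 878 control and 30 GC cells and its cluster 0 held 683 and 1182, and the part of this was not tested. Over all callus cells Tnf was at 6.65 and 16.2 CPM, a ratio of 2.43 (2.19 to 2.71), short of 2-fold on the scale used (log2 ratio 0.86). The median log2 ratio of the inducer list was 0.01, against 0.03 over all genes.

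No gene passed 2-fold over all callus cells in the lists of other ligands and receptors (8 with enough UMIs, median log2 ratio -0.20), RANK adaptors and NF-kB genes (19, median 0.08), costimulation and NFATc1 genes (13, median -0.01), osteocyte regulators (6, median 0.21) or OPG and coupling factors (11, median 0.10). Among all genes 0.562% of 15123 passed it. By class, Dmp1, a matrix protein used here as an osteocyte gene, was at 30.7 and 68.5 CPM in chondrocytes, a ratio of 2.23 (2.08 to 2.38). Efnb2, a membrane ligand in osteoclast to osteoblast signaling, was at 7.64 and 20.8 CPM there, a ratio of 2.72 (2.39 to 3.10). The 9 osteoblast markers, none at 0, summed to 18061 and 32900 CPM in chondrocytes, and cluster 2 of that class held 52 control and 1104 GC cells; the part of either in these differences was not tested. In stromal cells Il11, Lif and Il1r1 were lower in GC at ratios of 0.363, 0.369 and 0.403, which are 3 of 10 inducers and receptors with enough UMIs there. Of all 8007 genes in that class 1.97% passed, 116 lower and 42 higher. Tyrobp, an adaptor of myeloid cells, was also lower in stromal cells, at 27.2 and 9.53 CPM.

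In osteoclasts the costimulatory receptor Oscar was higher in GC, at 25.7 and 62.9 CPM, a ratio of 2.45 (1.79 to 3.39). Pth1r, Osm, Ptgs2 and Dmp1 were lower there, at ratios of 0.153, 0.203, 0.328 and 0.334. Markers of hypertrophic chondrocytes and of neutrophils were also lower in this class, the 4 neutrophil genes at 210 and 50.1 CPM, and their part was not tested. In macrophages Fos, Osm and Il1b were lower, at 0.425, 0.356 and 0.479, and the 4 neutrophil genes summed to 805 and 293 CPM there; their part was not tested. In hypertrophic chondrocytes Tyrobp, Fcer1g and Il1b were lower, from 13.2, 16.5 and 9.93 CPM in control, as were the neutrophil genes given above; their part was not tested. In osteoblasts or osteocytes Map3k14, the NF-kB inducing kinase, was lower (0.301, 0.145 to 0.577) and the oncostatin M receptor Osmr higher (2.24, 1.61 to 3.16). The 4 neutrophil genes summed to 139 and 20.0 CPM in that class, and Map3k14 was also lower in neutrophils (0.338); their part was not tested. In cluster 4, Osm (0.226), Fos (0.244), Ptger4 (0.401) and Il1b (0.419) were lower, and Tnf (4.62), Ikbkg (3.26) and Il6st (2.47) were higher. There 4.61% of 6027 genes passed 2-fold.

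Of the 7 osteocyte regulators, Sost, Dkk1, Fgf23 and Mepe had few UMIs in callus, at most 144 in a library. Dmp1 had 5022 and 4159 UMIs over all callus cells, Phex 8733 and 7100, and Pdpn 1162 and 1045. Sost, the osteocyte Wnt inhibitor, had 47 UMIs in control and 38 in GC callus, of which 14 and 32 lay in osteoblasts or osteocytes, and Fgf23 had 0 in the kept cells of all 4 libraries. Dmp1 was at 883 and 570 CPM and Phex at 420 and 542 CPM in that class. Osteocytes formed no class apart from osteoblasts, so the RANKL of osteocytes proper was not measured here. RANKL in the combined class rested on 26 and 13 UMIs, 19 of the 26 in 5 cells. Over all trabecular cells, none of the other pathway genes passed 2-fold in any list, where 1.0% of 12164 genes did. In mature neutrophils there Nfkbia (2.21) and Tnf (2.66) were higher and Ptger4 (0.280) lower in GC, where 3.61% of 7222 genes passed. Clusters 1 and 2 of that class held 15 and 722 control and 838 and 63 GC cells. In mast cells or basophils Il1b (2.34), Osm (2.51) and Ptgs2 (2.19) were higher, among 4.23% of 1653. In T cells Il1b (0.0908), Tyrobp (0.172), Fcer1g (0.316) and Nfkb1 (0.457) were lower, among 6.93% of 3736. B, erythroid and progenitor cells also held such genes.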

How the data were processed

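Counts were deposited by the authors as 10x matrices of unique molecular identifiers per gene and barcode, not normalized. Their processing notes list Cell Ranger 5.0.1, Seurat 3.2.0 and mm10, while the matrix headers name version 4 or 4.0.0. Empty droplets were removed from the 3 unfiltered matrices by a test against the ambient profile (at least 500 UMIs, false discovery rate 0.01). Cells needed 200 genes and at most 10% mitochondrial UMIs, and doublets were removed at 0.8% per 1000 cells by simulated doublets. Each tissue was clustered (2000 variable genes, 30 components, 15 neighbours, Leiden resolution 1; the 81 pathway genes were left out) and clusters were named from 185 markers. Member and list genes, and marker lists, were chosen with earlier results of these data known. Named genes were the 5 members, list genes past 2-fold and, for each member, the 3 most alike genes. UMIs were summed per class and library, with exact Poisson, Clopper-Pearson and conditional intervals; no test was made. The calculation was also checked on simulated data with known ratios. Those counts were drawn with Poisson error, so the check does not show how the intervals fit UMIs held by few cells. The scripts ran under Python 3.11.15 with leidenalg 0.10.2 and igraph 0.11.9 for clustering, scikit-learn 1.9.0 for components and neighbours, and scipy 1.17.1 for intervals.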

Additional observations from a re-analysis of the deposited data

How the results depend on the processing

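No paired analysis was possible because each condition had 1 library per tissue. Values are log2 ratios of GC to control; the alternatives leaving out clusters found over 90% in 1 library, and taking chondrocyte clusters singly, were chosen after seeing the data. The cause of the changes below was not tested. An alternative is counted for a result only where it gave a value. For a class it gave none when the class was not formed, could not be compared or held too few UMIs. Control class weights apply to all cells only. Counts for a class such as hypertrophic chondrocytes therefore cover fewer alternatives and say nothing about the others. OPG in all callus cells kept its sign under 19 of 19 alternatives (0.73 to 1.36), the change of RANKL per OPG under 18 of 18 (-1.34 to -0.76), RANKL in hypertrophic chondrocytes under 13 of 13 (-0.49 to -0.17) and RANKL in stromal cells under all 16 (-1.45 to -0.25).

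Whole-callus RANKL (0.07) was 0.17 with a 500-gene minimum, -0.36 with control class weights and -0.091 without library-specific clusters. OPG (0.95) was 1.36 as the mean over cells, 0.85 with median-of-ratios scaling, 1.35 thinned, 0.88 with pseudocount 20 and 0.73 without library-specific clusters. RANK (0.25) was 0.068 with a 5% mitochondrial maximum, 0.10 as the mean over cells, 0.12 thinned, 0.40 and 0.11 with pseudocounts 1 and 20 and 0.071 with class weights. Traf6 (0.21) reversed to -0.18 as the mean over cells, -0.0042 thinned, -0.063 after background subtraction and -0.021 with class weights. The background subtracted was the level of the gene in erythroid cells of the same library, not in droplets without a cell. In callus it rested on 1 and 1 Traf6 UMIs (6.00 and 9.79 CPM), and RANKL had 0 UMIs in callus erythroid cells, so nothing was subtracted for it.

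In callus 2 member and class pairs passed 2-fold. They were OPG in chondrocytes, where 0.801% of 13230 genes passed, and RANKL in stromal cells, where 1.97% of 8007 did. This count became 1 when every barcode of at least 500 UMIs was kept, with a 500-gene minimum, at Leiden resolutions 0.5 and 2, with clusters named against the mean, with median-of-ratios scaling, with pseudocount 20 and without library-specific clusters. The share of all genes was not computed under these alternatives. The log2 RANKL per OPG was -2.94 in control (-2.71 as the mean over cells, -2.67 thinned) and -3.83 in GC (-3.70 with 500 genes, -3.66 with doublets kept, -4.01 thinned), and its change of -0.89 was -0.76 with 500 genes, -1.20 as the mean and -1.34 thinned.

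In trabecular bone TWEAK (0.01) reversed to -0.32 as the mean over cells. Traf6 (-0.14) was -0.43 as the mean, -0.48 thinned, -0.41 after background subtraction, -0.70 with class weights and 0.047 without library-specific clusters. The 1 trabecular call was Traf6 in B cells, where 43.2% of 4968 genes passed. The count became 0 with 500 genes, a 5% mitochondrial maximum, Leiden resolution 2, naming against the mean, thinning, a minimum of 100 UMIs or without library-specific clusters, and 2 with a minimum of 20 UMIs. OPG in osteoblasts or osteocytes (0.83) was -0.16 with 500 genes. In chondrocytes, OPG was -0.11 in cluster 20 alone, and RANKL was -0.012 in cluster 3 and -0.20 in cluster 8 alone. RANKL (9 UMIs in each library) and OPG (5 and 15) had few UMIs in trabecular bone, though median UMIs per cell were 6369 and 5659 there.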
